A study of Homo sapiens with 9 samples.

Results

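The genes that encode receptor subunits for glutamate and GABA were followed through RNA-seq libraries of the breast cancer line MDA-MB-231 and its sub-populations. The set holds 45 genes, taken by symbol from a count table of 58884 genes: 4 AMPA, 5 kainate, 7 NMDA and 8 metabotropic glutamate receptor genes, 16 GABA-A subunits, 3 rho subunits and 2 GABA-B subunits. Of these, 36 had at least 1 read in some library, 21 had over 3 reads in some library, 8 had at least 10 reads in every library of 1 line or more, and 6 passed the filter on low counts and were tested.

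MDA-MB-231 is a human line of the claudin-low type, a breast cancer class named for its claudin levels, and is called Par here. LM2 and BrM2 are sub-populations of it, selected by passage through mice for colonizing the lung and the brain. The sources used here name no gene edit and no drug treatment for any group. All 3 lines were grown as monolayers in DMEM with 10% FBS and antibiotics, with no brain or lung cells present, and each line was harvested as 3 replicates at different passages. Each selected line is 1 population, so a difference between lines is a difference between these populations and not an average over independent selections. In bulk RNA, fewer cells that use a gene and less RNA per cell cannot be told apart.

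The libraries held 14371858 to 24511786 counts. Vimentin, CD44, KRT8 and KRT18 were high in all lines (summed level 2035 to 4291 CPM, counts per 1000000, over the 9 libraries), while the 8 luminal markers were uneven. ESR1, PGR, CLDN3 and CDH1 averaged at most 1.2 CPM in any line, EPCAM 4.81 to 7.14, CLDN7 8.28 to 15.7, CLDN4 5.82 to 95.1 and ERBB2 83.4 to 111, and the list summed to 182 to 272 CPM in Par, 84.1 to 145 in LM2 and 91.6 to 171 in BrM2. Of 9 neuron markers, DCX, STMN2, ELAVL3, ELAVL4, RBFOX3 and NEFL had at most 3 reads in every library. So had 3 of 5 astrocyte markers, SLC1A2, S100B and AQP4, while GFAP averaged 7.06 to 13.5 CPM and ALDH1L1 1.13 to 4.08, and that list summed to 12.2 to 20.6 CPM in Par, 9.59 to 22.7 in LM2 and 9.29 to 14.3 in BrM2. The neuron list summed to 4.66 to 7.77 CPM in Par, 8.52 to 16.1 in LM2 and 3.46 to 4.4 in BrM2, so its level was not highest in BrM2. Replicate 1 stood apart in all lines, and its values are given beside the genes it touches.

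Glutamate and GABA are the main excitatory and inhibitory transmitters of the brain. AMPA, kainate and NMDA receptors are cation channels and GABA-A receptors chloride channels, each built of several subunits, and metabotropic glutamate and GABA-B receptors act through G proteins. Several subunits work only in company: most GABA-A channels hold alpha and beta subunits, GRIK4 and GRIK5 need GRIK1, GRIK2 or GRIK3, NMDA channels need GRIN1, and a GABA-B receptor is a pair of GABBR1, which binds GABA, and GABBR2, which couples to the G protein.

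Promoter sequence was available for 5 of the 6 tested genes, and is shown for GABBR2 and GRIK4, the pair with the largest called rise and the largest called fall against Par among those 5. Each sequence is the 250 bases before the RefSeq start on GRCh38.p14, read 5′ to 3′ along the gene, with each CpG in capitals. The GABBR2 stretch lies at chr9:98708936-98709185 on the minus strand and the GRIK4 stretch at chr11:120511498-120511747 on the plus strand.
GABBR2: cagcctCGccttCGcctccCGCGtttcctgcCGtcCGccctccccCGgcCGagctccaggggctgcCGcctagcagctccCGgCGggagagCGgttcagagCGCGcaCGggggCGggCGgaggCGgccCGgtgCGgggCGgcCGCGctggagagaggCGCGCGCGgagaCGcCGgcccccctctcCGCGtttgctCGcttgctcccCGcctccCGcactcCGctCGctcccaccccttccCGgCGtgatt
GRIK4: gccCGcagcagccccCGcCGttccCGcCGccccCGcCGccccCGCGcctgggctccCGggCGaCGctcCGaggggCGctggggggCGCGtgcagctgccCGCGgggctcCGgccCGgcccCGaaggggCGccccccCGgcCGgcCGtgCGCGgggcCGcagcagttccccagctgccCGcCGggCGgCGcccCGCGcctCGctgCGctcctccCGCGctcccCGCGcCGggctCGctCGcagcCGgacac
The GABBR2 stretch held 38 CpG and the GRIK4 stretch 44, against a median of 11 over 35116 promoter stretches of this length. Fewer CpG were found in 96.7% of all stretches than in that of GABBR2, and in 99.2% than in that of GRIK4. GABRE held 31, GRIK2 25 and GABBR1 20 CpG, so all 5 were above the median whichever way their RNA moved. The GC box GGGCGG, searched on both strands, was present in GABBR2 and GRIK4 and in 42.6% of all stretches. The E-box CAGCTG was present in GRIK4 and in 14% of all stretches.

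**Figure D1:**
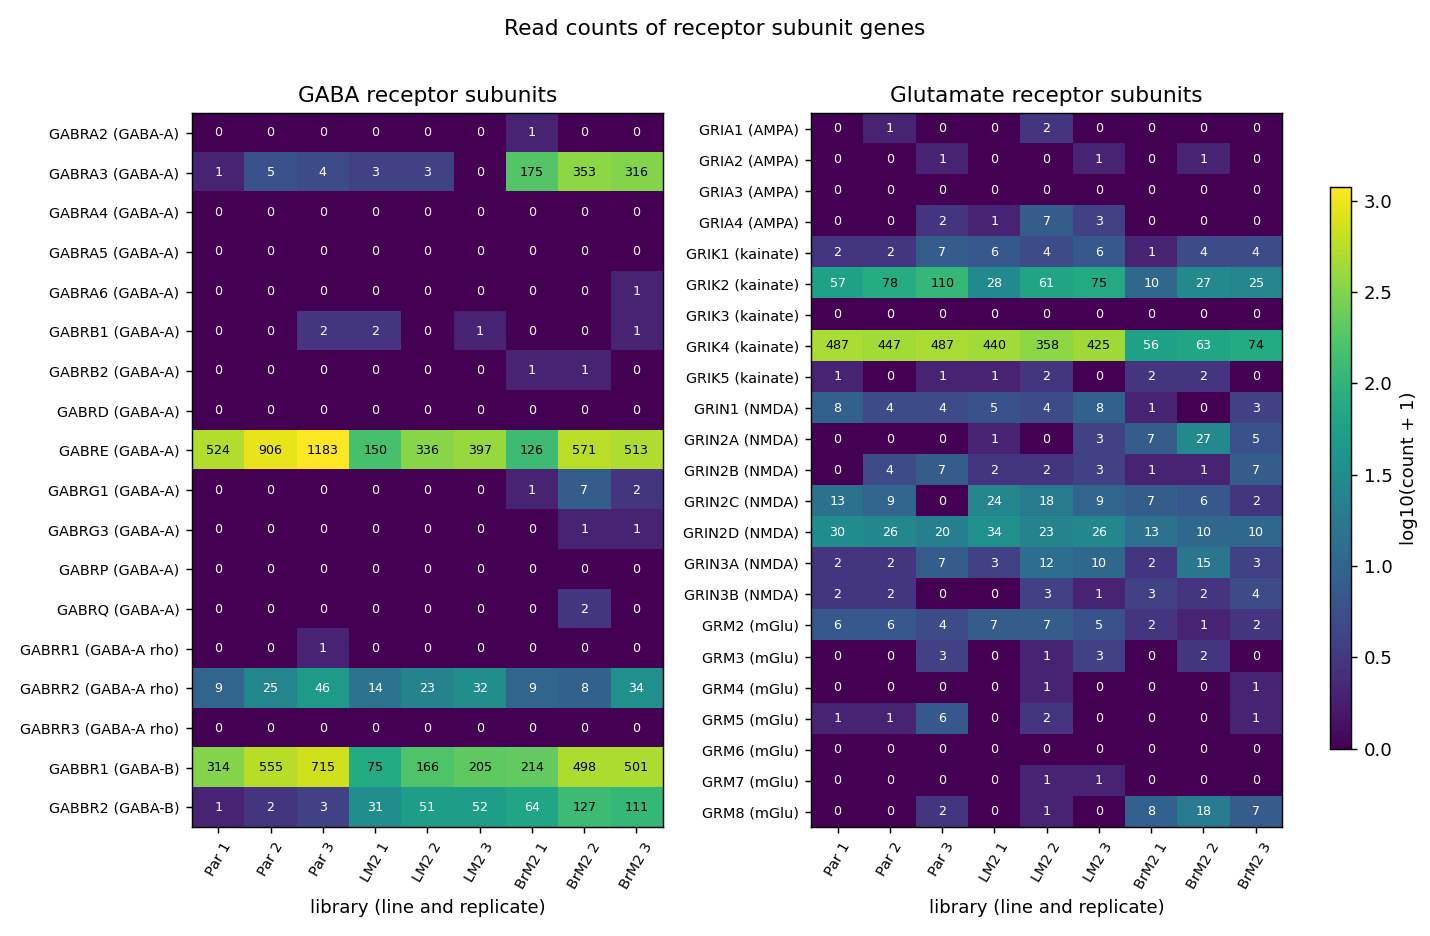
Read counts of the subunit genes described here (one per line of the grid) in the 9 libraries (columns), with GABA receptor subunits on the left and glutamate receptor subunits on the right; colour is log10(count + 1) and the printed digits are the counts. GABRE reached 1183 reads and GRIK4 487, whereas GABRA4, GABRA5, GABRD, GABRP, GABRR3, GRIA3, GRIK3 and GRM6 had 0 reads in every library.

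The plot of counts by library shows most subunit genes at few reads. At least 1 read was found for 36 of 45, beside 34056 of all 58884 genes. The filter was passed by 6 of 45, beside 13018 of all 58884. No read was found in any library for 9 genes, among them GABRA4, GABRA5, GABRD, GABRP, GABRR3, GRIA3, GRIK3 and GRM6. Another 15 genes never exceeded 3 reads, among them GABRA2, GABRA6, GABRB1, GABRB2, GABRG3, GABRQ, GABRR1, GRIA1, GRIA2, GRIK5, GRM3, GRM4 and GRM7. A count of 0 allows a level of up to 3 reads, which at the mean depth of a line is 0.14 CPM in Par, 0.13 in LM2 and 0.16 in BrM2. The 15 genes with over 3 reads in some library that did not pass the filter fall into several families, described in turn.

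The comparisons were: each selected line against Par, and BrM2 against LM2. In LM2 against Par, 3 of the 6 tested members were called (1 higher, 2 lower), beside 8.67% of all 13018 genes tested. In BrM2 against Par, 4 were called (2 higher, 2 lower), beside 13.2%. In BrM2 against LM2, 4 were called (3 higher, 1 lower), beside 8.1%. The median fitted log2 fold change of the 6 was −0.75, −0.60 and 1.09 in these comparisons, beside 0.01, −0.02 and −0.03 over all genes tested. The other 39 genes did not enter this filtered test. A gene that was high in 1 line could pass the filter through that line alone, so the 6 do not stand for the set. GABRA3 and GABBR2, the 2 called higher in BrM2 than in Par, passed it through BrM2 alone. With the replicate number as a block, 4, 5 and 6 members were called, beside 34.5%, 42.7% and 37.5% of all genes. The libraries of both lines did not overlap for 4, 5 and 5 of the 6 members, beside 25.1%, 31.3% and 23.1% of all genes tested.

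**Figure D2:**
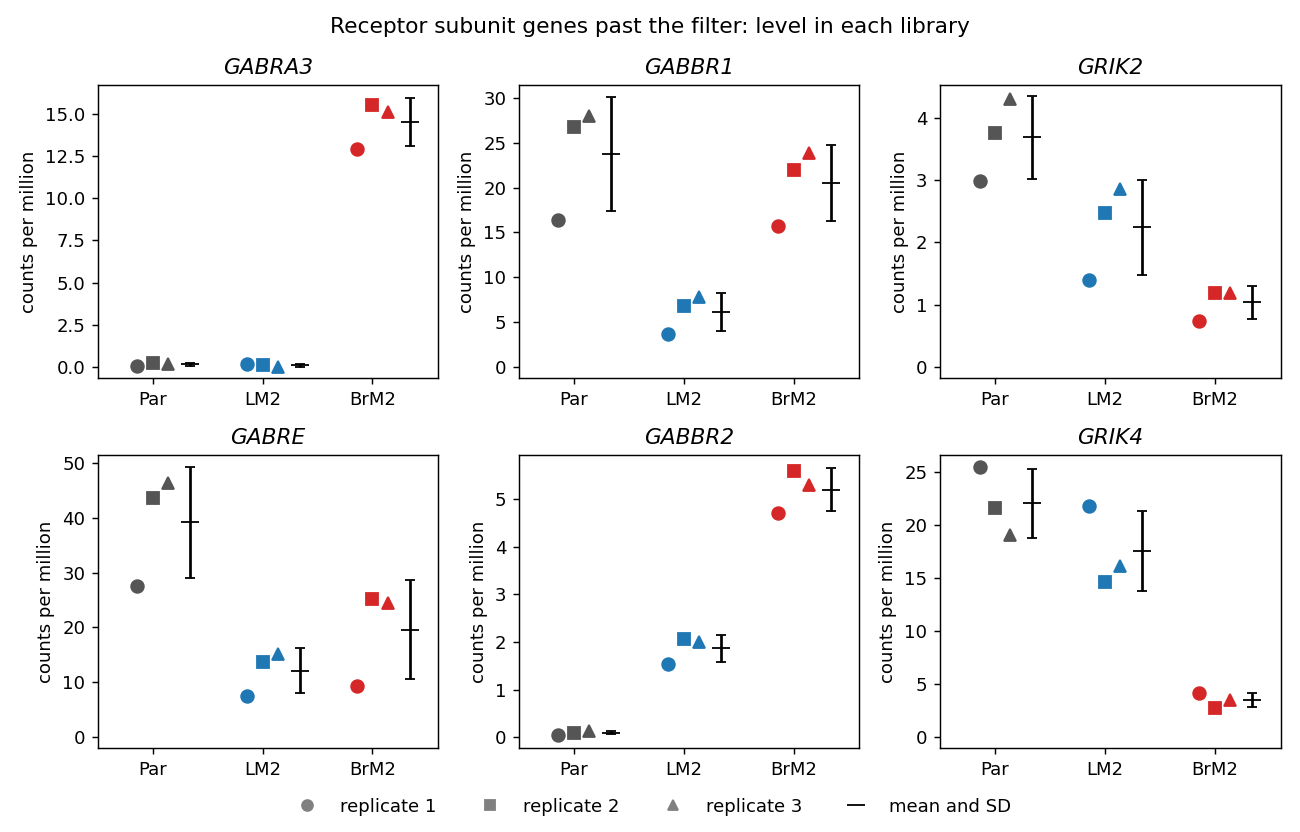
Level of the 6 tested genes in each library, as CPM on a linear axis; symbols mark the replicate and the black bar is the mean and SD of 3 replicates. GABRA3 lay between 12.9 and 15.5 CPM in BrM2 and at or below 0.241 CPM in every Par and LM2 library, while GRIK4 was lowest in BrM2 at 2.77 to 4.12 CPM.

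Among GABA-A receptor subunits, BrM2 differed most from the other lines in GABRA3, the alpha-3 subunit, which forms part of the GABA and benzodiazepine binding sites. GABRA3 (ENSG00000011677; chromosome X, 152166234 to 152451315) had 1, 5 and 4 reads in the Par libraries, 3, 3 and 0 in LM2, and 175, 353 and 316 in BrM2. Its level was 12.9, 15.5 and 15.1 CPM in BrM2 (14.5 ± 1.43, SD, n = 3), against 0.0524, 0.241 and 0.157 CPM in Par. All BrM2 libraries were far above all others, and Par and LM2 overlapped. In the edgeR quasi-likelihood test, GABRA3 was higher in BrM2 than in Par by 6.52 on the log2 scale (SE 0.58, adjusted p = 0.00021). With Par within a few reads of 0, the size of this fold depends on single reads. Against LM2, where no library exceeded 3 reads, GABRA3 was at least 114-fold higher in BrM2 (adjusted p = 0.00022 by edgeR). Between LM2 and Par the log2 difference was −0.79 (SE 0.78, adjusted p = 0.69 by edgeR). Neither call was lost when any 1 library was left out.

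GABRE, the epsilon subunit, was the most abundant member per length in Par (12.4 ± 3.24 CPM per kb of transcript) and was lower in LM2. GABRE (ENSG00000102287; chromosome X, 151953124 to 151974676) was at 27.5, 43.7 and 46.3 CPM in Par (39.2 ± 10.2), 7.43, 13.7 and 15.2 in LM2 (12.1 ± 4.1), and 9.27, 25.1 and 24.5 in BrM2 (19.6 ± 8.98). Replicate 1 was the lowest of each line, and the Par libraries were above all others. The same replicate was lowest in every line for GABBR1, GABBR2 and GRIK2. GABRE was lower in LM2 than in Par by 1.69 on the log2 scale, a fitted fold change of −1.69 (SE 0.43, adjusted p = 0.044 by edgeR). This call rested on all libraries being present: of the 9 fits without 1 library, 1 kept it, the fit without BrM2 replicate 1, and the adjusted p reached 0.14 without Par replicate 2, 0.13 without Par replicate 3 or LM2 replicate 2, and 0.054 to 0.088 in the others. With the replicate block the adjusted p was 1.9e-05. The log2 difference between BrM2 and Par was −0.99 (SE 0.42, adjusted p = 0.18), and with the block −1.07 (adjusted p = 0.00034). Between BrM2 and LM2 it was 0.70 (SE 0.42, adjusted p = 0.41), and with the block 0.66 (adjusted p = 0.009), all by edgeR. Without replicate 1 of all lines, and with no block, these 2 differences were −0.84 (adjusted p = 0.0013) and 0.80 (adjusted p = 0.0028).

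GABRE, GABRA3 and the theta subunit GABRQ lie next to each other within 706 kb of chromosome X. GABRQ had 2 reads in 1 BrM2 library and 0 elsewhere, so of these 3 only GABRA3 was called higher in BrM2 than in Par. Of 6 tested genes within 500 kb of GABRA3, 2 were called higher in BrM2 than in Par, the cancer-testis antigen genes MAGEA6 (log2 difference 8.38, adjusted p = 2.5e-05 by edgeR) and MAGEA3 (5.29, adjusted p = 0.0012 by edgeR). These neighbours were chosen after the values were seen, and as near-identical copies they can exchange reads. In that window, 0 of 10 tested genes around GABBR2 and 0 of 6 around GABBR1 were called higher in BrM2 than in Par. At each, 1 was called lower. Around GRIK4, 2 of 6 were called lower in BrM2 than in Par, and 2 of 6 in LM2, where GRIK4 was not called. Around GABBR2, 1 of 10 was called higher and 1 lower in LM2 than in Par. Of all genes tested, 13.2% were called in BrM2 against Par and 8.67% in LM2 against Par, in either direction. Whether the windows differ from these shares was not tested. The other 4 clusters, on chromosomes 4, 5, 6 and 15, hold 13 genes in all, of which GABRG1 and GABRR2 exceeded 3 reads in some library. GABRG1, a gamma subunit, had 1, 7 and 2 reads in BrM2 and 0 in all Par and LM2 libraries. GABRR2, a rho subunit of the kind best known from retina, had 8 to 46 reads and overlapped between the lines.

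GABA-B receptor subunits both had reads in every library, but GABBR2 did not exceed 3 reads in Par. GABBR2 (ENSG00000136928; chromosome 9, 98288109 to 98708935) had 1, 2 and 3 reads in Par, 31, 51 and 52 in LM2 and 64, 127 and 111 in BrM2. The levels were 1.54, 2.07 and 1.99 CPM in LM2 (1.87 ± 0.289) and 4.71, 5.59 and 5.3 CPM in BrM2 (5.2 ± 0.45). The 3 lines did not overlap, with Par lowest and BrM2 highest. For GABBR2, LM2 exceeded Par at least 13.5-fold (fitted log2 fold change 4.27, SE 0.35, adjusted p = 0.0002 by edgeR). BrM2 exceeded Par at least 37.8-fold (fitted 5.75, SE 0.35, adjusted p = 3.9e-05 by edgeR). BrM2 was above LM2 by 1.48 on the log2 scale (SE 0.25, adjusted p = 0.0072 by edgeR). Leaving out any 1 library lost none of these calls.

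GABBR1 (ENSG00000204681; chromosome 6, 29602238 to 29633183) was high in Par and BrM2 and low in LM2. It was at 16.4, 26.8 and 28 CPM in Par (23.7 ± 6.35), 3.71, 6.75 and 7.83 in LM2 (6.1 ± 2.13) and 15.7, 21.9 and 23.9 in BrM2 (20.5 ± 4.27). Every LM2 library was below every library of the other lines. Against Par, GABBR1 fell by 1.96 on the log2 scale in LM2, a fitted fold change of −1.96 (SE 0.34, adjusted p = 0.008 by edgeR). In BrM2 the difference from Par was −0.21 (SE 0.33, adjusted p = 0.79 by edgeR). BrM2 was above LM2 by 1.75 (SE 0.34, adjusted p = 0.014 by edgeR), with adjusted p = 0.056 without LM2 replicate 2 and 0.063 without BrM2 replicate 3. Of its transcripts' 50-base stretches, 7.72% also occur in another annotated gene, and its exons overlap those of UBD, which had 0 reads in every library.

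Per kb of the main transcript, GABBR1 stood at 5.24 ± 1.4 CPM in Par, 1.35 ± 0.471 in LM2 and 4.53 ± 0.944 in BrM2. GABBR2 stood at 0.0161 ± 0.00604, 0.34 ± 0.0526 and 0.946 ± 0.0818 CPM per kb. On this scale GABBR1 was above GABBR2 in all 3 lines. Of the KCTD proteins that bind GABA-B receptors (KCTD8, KCTD12 and KCTD16), KCTD12 alone passed the filter, with log2 differences of 0.93 in LM2 and −0.12 in BrM2 against Par and −1.06 between BrM2 and LM2. None was called without the replicate block, and the first and last were called with it.

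**Figure D3:**
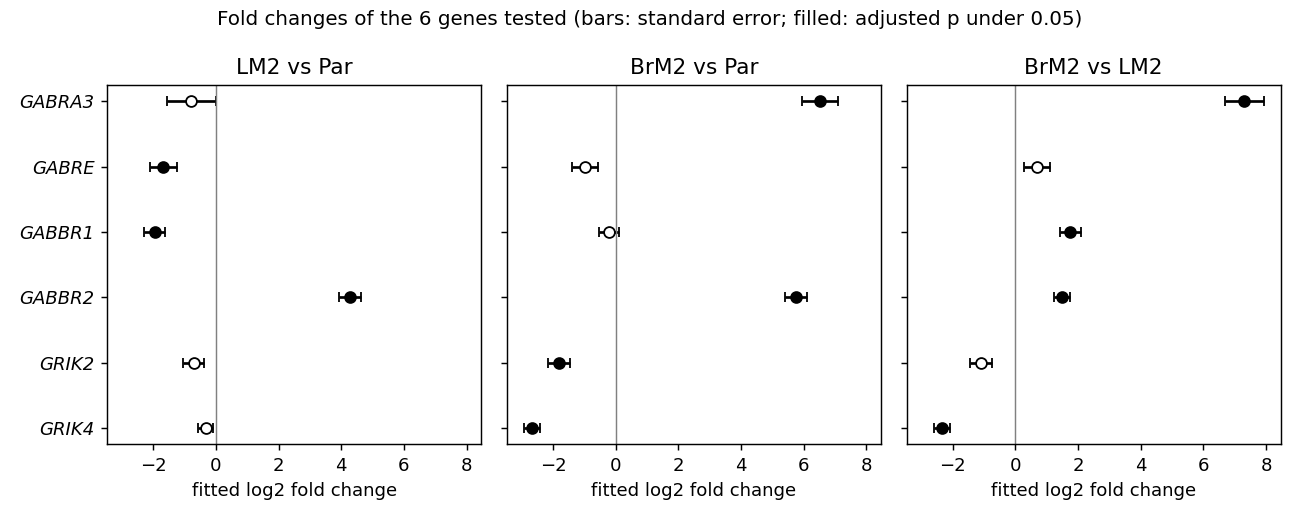
Fitted log2 fold change of the 6 tested genes in the 3 comparisons, with bars for the standard error and filled points for adjusted p under 0.05. GABRA3 in BrM2 stands at 6.52 against Par and 7.31 against LM2, and GRIK4 at −2.67 and −2.34, whereas values against lines within a few reads of 0 depend on the fit's prior.

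Kainate receptor subunits were the main glutamate receptor genes of these cells, and both tested members were lowest in BrM2. GRIK4 (ENSG00000149403; chromosome 11, 120511748 to 120988906), which encodes the high-affinity subunit KA1, was at 25.5, 21.6 and 19.1 CPM in Par (22.1 ± 3.24), 21.8, 14.6 and 16.2 in LM2 (17.5 ± 3.78) and 4.12, 2.77 and 3.54 in BrM2 (3.48 ± 0.675). The BrM2 libraries were below all others, Par and LM2 overlapped, and here replicate 1 was the highest of each line. GRIK4 fell by 2.67 on the log2 scale from Par to BrM2 (−2.67, SE 0.26, adjusted p = 0.00029 by edgeR), which is 6.36-fold lower. Against LM2 the difference was −2.34 (SE 0.26, adjusted p = 0.00078 by edgeR), and LM2 differed from Par by −0.33 (SE 0.24, adjusted p = 0.54 by edgeR).

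GRIK2 (ENSG00000164418; chromosome 6, 101393708 to 102070083), a subunit that forms channels alone or with GRIK4, was far less abundant. It was at 2.99, 3.76 and 4.31 CPM in Par (3.69 ± 0.665), 1.39, 2.48 and 2.86 in LM2 (2.24 ± 0.767) and 0.736, 1.19 and 1.19 in BrM2 (1.04 ± 0.263). The lines did not overlap. BrM2 was below Par by 1.80 (log2 −1.80, SE 0.35, adjusted p = 0.0094 by edgeR). The difference was −0.71 (SE 0.33, adjusted p = 0.27) in LM2 against Par and −1.09 (SE 0.35, adjusted p = 0.11) in BrM2 against LM2. With the replicate block these 2 had adjusted p = 0.02 and 0.0057, and the latter had 0.033 without LM2 replicate 1 and 0.012 without replicate 1 of all lines, all by edgeR. Without replicate 1 of all lines, the LM2 difference from Par had adjusted p = 0.099 with the block and 0.082 with none, so its blocked call was lost. Per kb of transcript, GRIK4 was at 3.8 ± 0.557 CPM and GRIK2 at 0.781 ± 0.141 in Par, and at 0.598 ± 0.116 and 0.22 ± 0.0557 in BrM2.

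The other kainate genes were at or near 0. GRIK1, which forms channels alone or with GRIK4, had 1 to 7 reads and GRIK5, the KA2 subunit, at most 2. GRIK1 shares exon sequence on the opposite strand with BACH1, and since strand use in the counting is not stated, reads of such pairs may not be told apart.

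NMDA receptor genes all had reads, but none passed the filter. GRIN1, the obligatory subunit, had 4 to 8 reads in the Par and LM2 libraries and 1, 0 and 3 in BrM2. Of the GRIN2 genes, which set the channel's kinetics, GRIN2D had 10 to 34 reads and averaged 1.2 ± 0.396 CPM in Par, 1.2 ± 0.416 in LM2 and 0.625 ± 0.288 in BrM2. GRIN2C had 0 to 24 reads and GRIN2B 0 to 7. GRIN2A had 0 reads in all Par libraries, 1, 0 and 3 in LM2, and 7, 27 and 5 in BrM2. GRIN3A had 2 to 15 reads, and GRIN3B had 0 to 4 and overlaps TMEM259 on the opposite strand.

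AMPA receptor genes, which carry most fast excitation in the brain, were close to absent. GRIA4 had 7 reads in LM2 replicate 2 and 0 to 3 elsewhere, and GRIA1 and GRIA2 never exceeded 2. Metabotropic receptors were likewise low. GRM2 had 1 to 7 reads and GRM5 0 to 6, while GRM8, a receptor that lowers cyclic AMP, had 8, 18 and 7 reads in BrM2 against 0 to 2 in the other libraries.

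A fit without the filter, over 34056 genes with any read, took in the low genes. It called GRIN2A and GRM8 beside the members called above in BrM2 against Par, where 6.36% of all genes were called, and in BrM2 against LM2, where 4.25% were called. In LM2 against Par, where 4.4% of all genes were called, it called no further member. For GRIN2A, BrM2 exceeded Par at least 4.7-fold (adjusted p = 0.00037 by edgeR) and LM2 at least 5.1-fold (adjusted p = 0.012 by edgeR). For GRM8, BrM2 exceeded Par at least 4.15-fold (adjusted p = 0.0042 by edgeR) and LM2 at least 4.51-fold (adjusted p = 0.0019 by edgeR). BrM2 replicate 2, with 27 GRIN2A reads, carried much of the GRIN2A level. Without it the limits were 2.74-fold against Par and 2.97-fold against LM2, and the call against LM2 was lost (adjusted p = 0.24 by edgeR). The other 3 calls were kept in all 9 unfiltered fits made without 1 library, which were added after seeing the data. Both stayed under 1 CPM on average in BrM2 (0.647 ± 0.488 for GRIN2A and 0.572 ± 0.229 for GRM8).

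**Figure D4:**
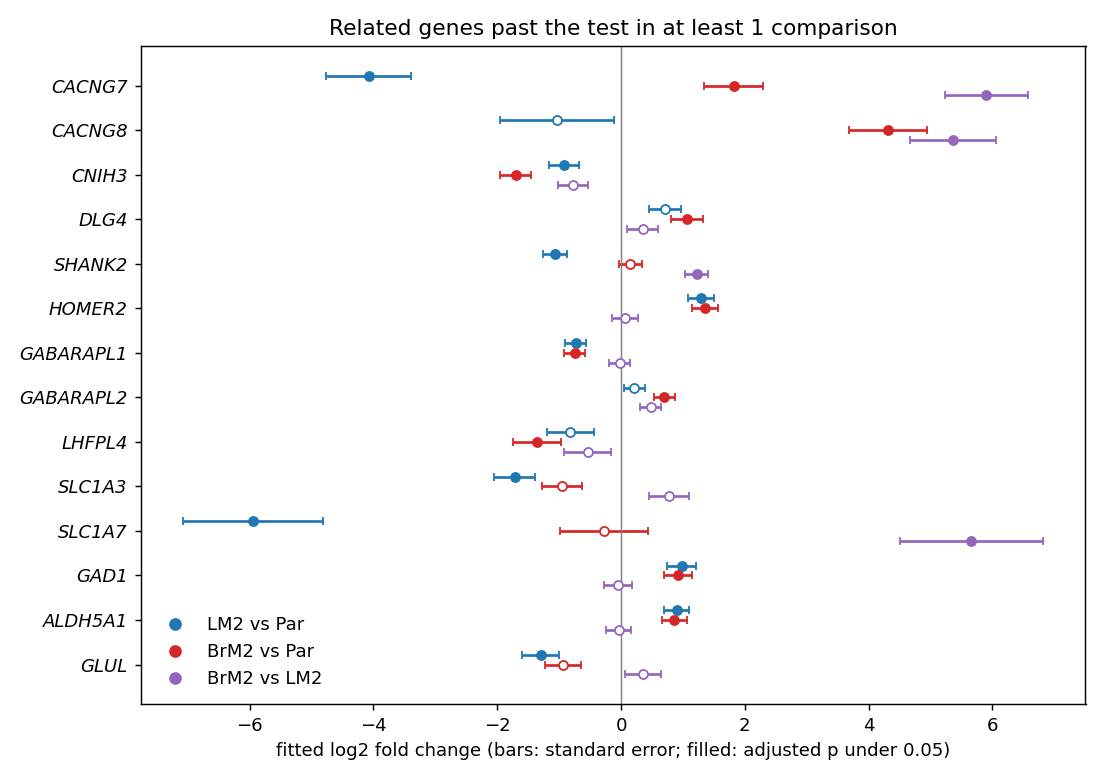
Fitted log2 fold change of related genes past the test in at least 1 comparison, with bars for the standard error, colours for the comparison and filled points for adjusted p under 0.05. CACNG7 lies on opposite sides of 0 in LM2 (−4.08) and BrM2 (1.82) against Par, while HOMER2 is above 0 in both.

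Genes that work around these receptors were followed with a list of 75, of which 35 were tested. In LM2 against Par 10 were called (3 higher, 7 lower), in BrM2 against Par 10 (7 higher, 3 lower) and in BrM2 against LM2 5 (all higher), beside 8.67%, 13.2% and 8.1% of all genes tested. In each comparison 3 of these calls passed in all 9 fits made without 1 library. With the replicate block 20, 21 and 16 were called, beside 34.5%, 42.7% and 37.5% of all genes tested. CACNG7 and CACNG8, called higher in BrM2 than in either other line, passed the filter through BrM2 libraries alone. The counts of higher calls in BrM2 are therefore partly set by the filter. The plot of related genes shows genes called in at least 1 comparison.

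Of 15 auxiliary subunit genes of AMPA and kainate receptors, 4 were tested (CACNG7, CACNG8, CNIH2 and CNIH3), all of them AMPA receptor partners, with 2 lower in LM2 than in Par, 2 higher and 1 lower in BrM2 than in Par, and 2 higher in BrM2 than in LM2. CACNG7, a transmembrane AMPA receptor regulatory protein, was at 1.26, 1.74 and 0.823 CPM in Par, 0, 0.0407 and 0.153 in LM2, and 5.96, 2.99 and 4.54 in BrM2. It was lower in LM2 than in Par (log2 −4.08, SE 0.69, adjusted p = 0.0065 by edgeR) and 5.90 higher in BrM2 than in LM2 (SE 0.67, adjusted p = 0.00091 by edgeR). Against Par its BrM2 rise of 1.82 (SE 0.48, adjusted p = 0.039 by edgeR) was kept in 3 of the 9 fits. CACNG8, of the same family, was at least 18.4-fold higher in BrM2 than in Par (adjusted p = 0.0022 by edgeR) and at least 20-fold higher than in LM2 (adjusted p = 0.0018 by edgeR). It stood at 1.25, 2.82 and 3.54 CPM in BrM2. Both CACNG genes entered the test only because they were high in BrM2. CNIH3, a cornichon that helps export AMPA receptors, fell by 1.70 in BrM2 (log2 −1.70, SE 0.25, adjusted p = 0.0022 by edgeR) and by 0.92 in LM2 (−0.92, SE 0.24, adjusted p = 0.048 by edgeR), the latter kept in 1 of the 9 fits.

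Scaffold genes had 12 of 18 members tested, with 1 higher and 1 lower in LM2 against Par, 2 higher in BrM2 against Par and 2 higher in BrM2 against LM2. HOMER2, which links metabotropic receptors to calcium stores, rose by 1.29 in LM2 (SE 0.21, adjusted p = 0.0058 by edgeR) and by 1.36 in BrM2 (SE 0.21, adjusted p = 0.0032 by edgeR). SHANK2 fell by 1.07 in LM2 (log2 −1.07, SE 0.19, adjusted p = 0.0093 by edgeR) and was 1.22 higher in BrM2 than in LM2 (SE 0.19, adjusted p = 0.0052 by edgeR). DLG4, which encodes PSD-95, was 1.06 higher in BrM2 than in Par (SE 0.26, adjusted p = 0.027 by edgeR), kept in 4 of the 9 fits. Its LM2 difference from Par was 0.71 (adjusted p = 0.15), and 0.67 with the replicate block (adjusted p = 0.0075), both by edgeR.

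Transporters and enzymes of both transmitters gave fewer calls that held. Of 9 glutamate transporters, 4 were tested and 2 were lower in LM2 than in Par. SLC1A7 was at 2.25, 3.09 and 1.02 CPM in Par, 0.099, 0 and 0 in LM2 and 3.75, 0.748 and 0.908 in BrM2, at least 16.7-fold lower in LM2 than in Par (adjusted p = 0.012 by edgeR) and at least 14.2-fold higher in BrM2 than in LM2 (adjusted p = 0.017 by edgeR). Without BrM2 replicate 1, the highest of its line, the latter limit fell to 6.53-fold. Each call was kept in 7 of the 9 fits, and without LM2 replicate 2 or 3 the adjusted p rose to at most 0.061 and 0.078. SLC1A3, the glial type glutamate transporter, fell by 1.72 in LM2 (log2 −1.72, SE 0.33, adjusted p = 0.012 by edgeR), with 0.054 without LM2 replicate 3. In BrM2 against Par SLC1A3 was at −0.95 (adjusted p = 0.092), and at −0.96 with the replicate block (adjusted p = 0.0022), both by edgeR. Of 10 metabolic genes, 6 were tested: GAD1, which makes GABA, and ALDH5A1, which completes its breakdown, were called higher in LM2 (0.98 and 0.90) and in BrM2 (0.92 and 0.86), and GLUL, which makes glutamine, lower in LM2 (−1.30). Their adjusted p by edgeR were 0.023 to 0.031, and each call was kept in 3 or 4 of the 9 fits, the adjusted p reaching 0.096 to 0.14. In BrM2 against Par GLUL was at −0.94 (adjusted p = 0.071), and at −0.96 with the replicate block (adjusted p = 5.2e-05), both by edgeR. No GABA transporter and no delta glutamate receptor was tested, and the glycine receptor gene GLRB was called only with the replicate block, lower in BrM2.

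Partners of GABA-A receptors had 7 of 9 members tested. GABARAPL1 was lower in both selected lines (log2 −0.73 in LM2 and −0.75 in BrM2, adjusted p = 0.033 and 0.022 by edgeR), and in BrM2 GABARAPL2 was 0.70 higher (adjusted p = 0.026 by edgeR) and LHFPL4 lower by 1.36 (log2 −1.36, adjusted p just under the threshold). The first 2 genes belong to the ATG8 family and also serve autophagy. These calls were kept in 2 to 5 of the 9 fits, the adjusted p reaching 0.1 to 0.19. In LM2 against Par LHFPL4 was at −0.82 (adjusted p = 0.27), and at −0.83 with the replicate block (adjusted p = 0.0068), both by edgeR.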

How the data were processed

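RNA of 3 lines (Par, LM2 and BrM2, 3 replicates each, harvested at different passages) was sequenced as stranded paired-end mRNA libraries. The deposited counts are whole reads per gene, which the authors made with STAR 2.7.0 on hg38 and an annotation they name GENCODEv96, and replicates were not pooled. Whether strand was used in the counting is not given in the sources used here. A second deposited table holds the authors' own DESeq2 fold changes and adjusted p-values and was not used.

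The 3 identifiers listed under 2 symbols with the same counts were kept once, leaving 58884 genes. Genes were kept where the largest normalized count passed 47.15, the threshold (of 100 tried, 1 to 200) at which replicates agreed best by the Jaccard index, which left 13018 genes and 99.64% to 99.77% of the counts. Lines were compared with edgeR 4.0.16 (quasi-likelihood test, TMM scaling, all 9 libraries in 1 fit, R 4.3.3) and Benjamini-Hochberg adjustment over all genes tested, with a threshold of 0.05; the script was tested on simulated data. CPM is counts per 1000000 of the TMM-scaled library. A line with at most 3 reads in every library was set to 3 reads at its mean depth, which gives the bounds written as "at least". Such limits make no allowance for error in the higher line or for spread between replicates. Where a library of the low line itself had 3 reads, they leave no margin for its counting error. Libraries of 14371858 to 24511786 counts set the precision.

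Same-numbered replicates deviated together in every pair of lines (correlation 0.23 to 0.90 over the tested genes). The number was therefore taken to pair the libraries, a reading from the data, since no label says what a number shares. Libraries of different number were not correlated, and replicate 1 stood apart in all lines. Whether the other replicates pair by number was thus not tested, and the values with the block rest on it. For the tested members, fits with the replicate block are given where they change a call. For related genes they are given for some only. The block lowered the common dispersion from 0.11 to 0.021. Alternatives were RLE scaling, edgeR's own filter, no filter, DESeq2 1.42.0, leaving out libraries and the block, and the block without replicate 1 was chosen after seeing the data.

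Positions and promoters are from RefSeq on GRCh38.p14; 45 members matched by symbol for position and 34 for promoters. Transcript lengths, exon overlaps and shared 50-base stretches are from GENCODE v44 on GRCh37, from which no position was taken. The 45 genes, the related lists and the marker lists were chosen with earlier results of these data known. Some genes are not reported here by name. The 6 tested have all their values, and of each related list up to 4 called genes are named by smallest adjusted p.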

Additional observations from a re-analysis of the deposited data

Results flagged for a closer look

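For 4 genes the change from Par differed between LM2 and BrM2, as tested directly by edgeR between BrM2 and LM2. The log2 difference, BrM2 minus LM2, was 7.31 for GABRA3, −2.34 for GRIK4, 1.75 for GABBR1 and 1.48 for GABBR2. GABRA3 was higher and GRIK4 lower in 3 of 3 BrM2 libraries than in any LM2 library, and GABBR1 and GABBR2 were higher in 3 of 3.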

How the results depend on the processing

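Over the alternatives, 287 of the fitted values of the 6 tested genes kept direction and side of the threshold, 12 passed it, 25 lost it and 0 changed sign. Most losses came with replicate 2 or 3 of all lines left out. Over the fits that left out libraries, 0 to 3 members were called in LM2 against Par, 2 to 5 in BrM2 against Par and 0 to 6 in BrM2 against LM2. The replicate block moved the call of 4 of the 18 gene values, GRIK2 and GABRE, given above, and no other call of a member. All genes called, in the same order of comparisons, were 4491, 5557 and 4887 with the replicate block, and 3639, 4796 and 3724 with the block and without replicate 1; DESeq2 called 1886 in LM2 against Par and 1817 in BrM2 against LM2. With libraries left out they ranged from 70 to 4302, from 154 to 5254 and from 53 to 4244. Related genes called were 20, 21 and 16 with the block. With the block and without replicate 1 they were 20 in BrM2 against Par and 13 in BrM2 against LM2, and with DESeq2 16 and 8, while without the filter 8 were called in BrM2 against LM2. With libraries left out they ranged from 0 to 16, from 0 to 21 and from 0 to 14. The number of members counted as expressed, 36 at 1 read, was 21 at over 3 reads, 8 at 10 reads or at 0.5 CPM in every library of a line, and 6 past the filter. Depth limits the 39 genes that did not pass the filter, and for those that never exceeded 3 reads no difference between lines was detectable.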
